A study of Mus musculus with 6 samples.

Results

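The genes described here are 8 proposed targets of the SOXC transcription factors SOX11 and SOX4 that act on actin, microtubules or cell shape: *Fscn1*, *Fblim1*, *Evl*, *Tmsb10*, *Marcksl1*, *Arhgef2*, *Limd2* and *Farp1*. They are actin- and microtubule-linked members of a list of positively regulated targets. The study's own marking of cytoskeletal and motility genes in that list leaves out *Marcksl1* and *Limd2* and includes genes that are not among the 8. The list was chosen in part on these arrays, by a lower level in keratinocytes lacking both factors, with genes changed only in those cells preferred. They are 8 of 21368 genes with a symbol on the array and were measured by 11 probes, 3 for *Limd2*, 2 for *Farp1* and 1 for each of the other members. Mouse keratinocytes, the cells of the epidermis, were isolated from newborn back skin and compared on 6 two-colour arrays. Each array set total RNA of 1 knockout culture against RNA of wild-type keratinocytes in the other channel. The 3 genotypes were *Sox4* cKO, *Sox11* cKO and the *Sox4*/*Sox11* double knockout (dcKO), with 2 arrays each, and the labels call these biological replicates. All samples carry the strain label 129SvEx:C57BL/6. Floxed *Sox4* and *Sox11* alleles were removed by Cre under the keratin 14 promoter, which is active in basal epidermal cells, and the Cre line came from FVB/N mice. The parental floxed stock also carried *Sox12*-/-, and the *Sox12* genotype of the cultured cells is not given in the sources used here. All cultures were grown on mitomycin-treated J2 mouse fibroblasts for 3 passages and then without them for at least 2. The knockout RNA was labelled with Cy5 in replicate 1 and with Cy3 in replicate 2 of every genotype.

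Migrating epidermal cells push out sheets and spikes of membrane that are filled with actin filaments and anchored to the matrix through focal adhesions. Fascin, the product of *Fscn1*, ties filaments into the parallel bundles of filopodia, and EVL belongs to the Ena/VASP proteins, which lengthen filaments at their growing ends. Thymosin beta-10 (*Tmsb10*) binds actin monomers, and MARCKSL1 is a membrane-associated actin-binding protein. Migfilin (*Fblim1*) is a LIM domain adaptor that binds filamin at adhesions, and LIMD2 is a small LIM domain protein. ARHGEF2, also named GEF-H1, is an exchange factor held on microtubules, and FARP1 is an exchange factor with a FERM domain. SOXC factors bind DNA through an HMG box and recognise short A/T-rich sites such as ACAAAG and ACAATG.

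Promoter windows of the members are shown because the 8 genes were chosen together as targets of one pair of DNA-binding factors. The windows are RefSeq sequences in the GRCm38.p6 build, from 250 bases before to 50 after an annotated start, and 7 of the 8 members had 16 windows between them. Which of a gene's windows serves the transcript that the probe measured was not tested. In the sequences below, printed 5′ to 3′ on the gene's strand, capitals mark every match on either strand to the SOX letters ACAAAG and ACAATG, the AP-1 letters TGANTCA and the TEAD letters GGAATG, where N is any base. No match overlapped another.
*Fscn1*, chr5:142960105-142960404, plus strand: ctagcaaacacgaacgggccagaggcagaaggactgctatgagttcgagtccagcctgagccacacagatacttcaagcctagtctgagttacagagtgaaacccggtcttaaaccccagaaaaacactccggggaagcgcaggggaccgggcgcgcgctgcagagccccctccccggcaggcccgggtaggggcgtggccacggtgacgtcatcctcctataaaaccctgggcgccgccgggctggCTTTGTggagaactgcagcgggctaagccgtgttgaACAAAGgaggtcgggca
*Fblim1*, chr4:141606003-141606302, minus strand: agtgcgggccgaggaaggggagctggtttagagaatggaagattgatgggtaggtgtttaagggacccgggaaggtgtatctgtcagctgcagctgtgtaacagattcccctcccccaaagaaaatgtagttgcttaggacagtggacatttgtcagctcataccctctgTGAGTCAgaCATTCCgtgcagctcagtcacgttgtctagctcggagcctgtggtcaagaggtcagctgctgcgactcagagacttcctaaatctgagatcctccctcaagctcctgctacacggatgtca
*Fblim1*, chr4:141599949-141600248, minus strand: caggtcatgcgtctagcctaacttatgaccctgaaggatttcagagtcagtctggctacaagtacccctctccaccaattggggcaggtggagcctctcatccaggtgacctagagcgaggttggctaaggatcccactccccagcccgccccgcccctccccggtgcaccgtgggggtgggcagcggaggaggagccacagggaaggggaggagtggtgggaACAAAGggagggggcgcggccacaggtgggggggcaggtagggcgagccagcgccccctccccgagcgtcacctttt
*Evl*, chr12:108605516-108605815, plus strand: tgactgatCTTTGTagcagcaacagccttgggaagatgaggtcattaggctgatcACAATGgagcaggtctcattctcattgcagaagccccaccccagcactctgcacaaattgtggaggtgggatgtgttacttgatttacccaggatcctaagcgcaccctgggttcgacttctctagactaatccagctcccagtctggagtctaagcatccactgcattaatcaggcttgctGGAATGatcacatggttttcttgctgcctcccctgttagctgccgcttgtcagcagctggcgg
*Marcksl1*, chr4:129513331-129513630, plus strand: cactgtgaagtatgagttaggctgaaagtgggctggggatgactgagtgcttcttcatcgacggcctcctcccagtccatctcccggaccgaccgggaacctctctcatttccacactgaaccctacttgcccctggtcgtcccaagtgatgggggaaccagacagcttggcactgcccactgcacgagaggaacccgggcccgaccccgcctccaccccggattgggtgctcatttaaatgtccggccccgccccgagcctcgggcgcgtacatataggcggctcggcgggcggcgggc
The *Fscn1* window held 2 ACAAAG matches, which begin 3 bases before and 33 bases after the annotated start. One *Fblim1* window held an ACAAAG match, and the other held a TGANTCA and a GGAATG match a few bases apart. The *Evl* window shown held both SOX motifs and a TEAD match, and its other window, chr12:108554470-108554769, held 1 ACAAAG and 2 GGAATG matches. The *Marcksl1* window held none of the 4 motifs. ACAAAG was present in 6 of the 16 member windows (37.5%), from 4 genes (*Fscn1*, *Fblim1*, *Evl* and *Limd2*), and in 18.7% of all 32851 windows of this length. ACAATG was present in 2 member windows (12.5%, against 12.6% of all windows), TGANTCA in 1 (6.25%, against 7.81%) and GGAATG in 3 (18.8%, against 14.7%). Windows of one gene can overlap and are not independent, and these shares are a description without a test.

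The deleted genes checked the labels. The log2 ratio of *Sox4* was -2.52 ± 0.04 in *Sox4* cKO (SD, n = 2; limma adjusted p = 0.00400) and -2.52 ± 0.41 in dcKO (SD, n = 2; limma adjusted p = 0.00106). *Sox11* was at -2.98 ± 0.47 in *Sox11* cKO (SD, n = 2; limma adjusted p = 0.0417) and -3.43 ± 0.51 in dcKO (SD, n = 2; limma adjusted p = 0.00664), and none of the 12 channels measured *Sox12*, the remaining SOXC gene, well above background. The second *Sox4* probe was at -2.64 in *Sox4* cKO (limma adjusted p = 0.00492) and -2.13 in dcKO (limma adjusted p = 0.00273). The second *Sox11* probe was at -2.78 in *Sox11* cKO (limma adjusted p = 0.0946, not below 0.05) and -3.12 in dcKO (limma adjusted p = 0.0150). In *Sox4* cKO the brighter *Sox11* probe had ratios of 0.82 and -0.97. Its log2 wild-type signal, scaled between arrays, ranged from 8.49 to 10.74. Between 35.1% and 45.0% of probes were well above background in each channel and no spot was saturated. The lowest share was that of the knockout channel of dcKO replicate 1, against 41.0% in its wild-type channel. On dcKO replicate 2 the shares were 42.1% in the knockout and 45.0% in the wild-type channel. In each single knockout the knockout channel had the lower share on replicate 1 and the higher share on replicate 2. All 9 keratinocyte markers were well above background in all 12 channels. Of 10 fibroblast markers, which feeder cells would carry, 4 were above background in at least 1 channel, and *Col1a1*, *Col3a1*, *Pdgfrb*, *Thy1*, *Lum* and *Postn* in none. The summed signal of all 10 ranged from 303 to 331 in wild-type channels, from 304 to 329 in the single knockouts and from 366 to 480 in dcKO. That sum was thus higher in dcKO, in which the 8 members were lower, and its part in the results was not tested. It includes probes that were not above background. *Col6a1* was above background in 1 wild-type and 1 knockout channel, and *Pdgfra* and *Dcn* in 1 knockout channel each. Of 6 melanocyte markers 3 and of 6 immune markers 2 (*Ptprc* and *Cd3e*) were above background in at least 1 channel. The summed immune signal was likewise higher in dcKO, at 789 to 829 against 618 to 744 in wild-type and 590 to 716 in single knockout channels. The melanocyte sum was 220 to 251 in dcKO and 232 to 327 in wild type. Of the immune markers only *Cd3e* was above background in all 12 channels (dcKO ratio 0.31, limma adjusted p = 0.517). Among fibroblast markers, *Col1a2* was above background in 5 wild-type and 6 knockout channels, and *Col6a1* had a dcKO ratio of 1.22 (limma adjusted p = 0.155). No marker of any list had a limma adjusted p below 0.05 in dcKO. The part of the immune and melanocyte sums in the results was not tested. In RNA from whole cultures, fewer cells that express a gene and less RNA per cell cannot be told apart.

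All 8 members were lower than wild type on both dcKO arrays, with mean log2 ratios from -1.09 to -3.60 and a median of -2.33, against -0.01 over all genes and -0.06 over the 11702 genes well above background in the wild-type channel of both dcKO arrays. No member was higher than wild type on both arrays of a single knockout except *Fscn1* in *Sox4* cKO. A gene was called at a limma adjusted p below 0.05 with a log2 change beyond 1.5 in size. By that rule 5 of the 8 members (*Fscn1*, *Fblim1*, *Evl*, *Marcksl1* and *Farp1*) were called lower in dcKO, beside 0.833% of all genes and 1.51% of genes above background in wild type. Because the members were chosen by this contrast, the count describes the choice and is given without a p. The study states its cutoff of 1.5 as a log2 fold change in its methods and as a fold change in some figure legends. Which of these made the list was not tested. *Farp1* was the called member with the smallest mean change. *Tmsb10* lay just outside the fold threshold, and *Limd2* passed the fold threshold but not the adjusted p. The number called moved to 2 without dcKO replicate 2 and to 3 without dcKO replicate 1. It ranged from 0 with the scanner's processed signals, where no gene on the array was called lower, to 8 with median centring in place of loess.

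Among the filament-building members, *Fscn1* was low in dcKO and close to wild type in both single knockouts. Its log2 ratios were 0.54 and 0.07 on the *Sox4* cKO arrays, -0.65 and 0.08 on the *Sox11* cKO arrays, and -2.48 and -3.48 on the dcKO arrays (mean -2.98 ± 0.71, SD, n = 2), so that 12.7% of the wild-type signal remained in dcKO. The 4 single knockout ratios did not overlap the dcKO ratios. Its relatives *Fscn2*, which was not well above background in any wild-type channel, and *Fscn3* had dcKO ratios of 0.10 ± 0.21 and -0.11 ± 0.22 (SD, n = 2).

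*Evl* was the member with the lowest dcKO ratio and the only one whose reported probe was below wild type on all 6 arrays. The ratios were -0.95 and -1.04 in *Sox4* cKO, -0.79 and -2.37 in *Sox11* cKO, and -3.25 and -3.96 in dcKO (mean -3.60 ± 0.50, SD, n = 2), where 8.24% of the wild-type signal remained. *Sox11* cKO replicate 2 stood between the other single knockout arrays and the dcKO arrays. The Ena/VASP relative *Enah* fell by less in dcKO, by 1.16 on both arrays (limma adjusted p = 0.0340), and its second probe was at -0.98 (limma adjusted p = 0.0335). *Vasp* had a dcKO ratio of -0.68 ± 0.27 (SD, n = 2; limma adjusted p = 0.249).

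The monomer-binding *Tmsb10* had ratios of 0.31 and -0.51 in *Sox4* cKO, -0.51 and 0.22 in *Sox11* cKO, and -1.62 and -1.37 in dcKO (mean -1.49 ± 0.17, SD, n = 2). The dcKO arrays differed from each other by less than the arrays of either single knockout did. Its relative *Tmsb4x* fell to -0.99 and -2.21 in dcKO (mean -1.60 ± 0.86, SD, n = 2; limma adjusted p = 0.00933), with replicate 2 below replicate 1 in all 3 genotypes. *Tmsb15a* was not well above background in any wild-type channel.

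*Marcksl1* had ratios of 0.28 and -0.50 in *Sox4* cKO, -0.79 and -0.12 in *Sox11* cKO, and -3.01 and -2.16 in dcKO (mean -2.58 ± 0.60, SD, n = 2). In dcKO 16.7% of the wild-type signal remained. The related gene *Marcks*, which encodes the larger protein of the family, had a dcKO ratio of -0.04 ± 0.26 (SD, n = 2; limma adjusted p = 0.964).

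Of the LIM domain members, *Fblim1* had ratios of 0.12 and -1.34 in *Sox4* cKO, 0.56 and -0.44 in *Sox11* cKO, and -2.54 and -3.16 in dcKO (mean -2.85 ± 0.44, SD, n = 2), leaving 13.9% of the wild-type signal. Replicate 1 was higher than replicate 2 in each genotype, and the fitted dye effect of this probe was 0.51 (log2, Cy5 over Cy3). With that effect removed, the *Sox4* cKO ratios were -0.40 and -0.83, the *Sox11* cKO ratios 0.04 and 0.07, and the dcKO ratios -3.05 and -2.65. Among 6 LIM domain relatives, *Zyx*, the adhesion protein zyxin, fell in dcKO (-1.69 and -0.76, mean -1.22 ± 0.66, SD, n = 2; limma adjusted p = 0.0397). *Ajuba* (-0.76), *Lpp* (-0.69), *Limd1* (-0.48), *Wtip* (-0.41) and *Trip6* (0.25) did not pass the test in dcKO.

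*Limd2* was lower in dcKO by an amount that differed between the arrays. Its brightest probe had ratios of -0.04 and -1.16 in *Sox4* cKO, 0.13 and -0.57 in *Sox11* cKO, and -2.40 and -1.21 in dcKO (mean -1.80 ± 0.84, SD, n = 2). The *Sox4* cKO replicate 2 ratio of -1.16 was close to the dcKO replicate 2 ratio. A second probe gave -2.18 and -1.02 in dcKO (mean -1.60 ± 0.82, SD, n = 2) and met the call rule, and the dimmest probe gave -1.09 and -0.24. All 3 probes were lower on dcKO replicate 1 than on replicate 2. The LIM domain gene *Lima1*, listed as its relative, had a dcKO ratio of -0.33 ± 0.60 (SD, n = 2; limma adjusted p = 0.501).

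The exchange factor *Arhgef2* had the smallest dcKO change of the 8, at -1.01 and -1.16 (mean -1.09 ± 0.10, SD, n = 2), which left 47.1% of the wild-type signal. Its single knockout ratios were 0.39 and -0.20 in *Sox4* cKO and -0.15 and 0.16 in *Sox11* cKO, all higher than either dcKO ratio. Of 6 related exchange factors, *Arhgef28* fell in dcKO (-0.94 and -1.35, mean -1.14 ± 0.29, SD, n = 2; limma adjusted p = 0.0269), and its second probe was at -1.29 (limma adjusted p = 0.0117). *Arhgef1* (-0.63), *Akap13* (-0.56), *Arhgef11* (-0.13), *Arhgef12* (0.01) and *Arhgef18* (0.51) did not pass the test.

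*Farp1* had the widest gap between dcKO arrays. Its brighter probe gave -0.01 and -1.16 in *Sox4* cKO, 0.09 and -0.52 in *Sox11* cKO, and -1.02 and -3.11 in dcKO (mean -2.07 ± 1.48, SD, n = 2). Only 1 of the 2 dcKO arrays measured it well above background in the knockout channel, and the ratio of -3.11 on the other array, and with it the mean, rests on a signal that was not. The dcKO replicate 1 ratio was above the *Sox4* cKO replicate 2 ratio, so the groups overlapped. This probe had the largest fitted dye term of the members, 0.64 (log2, Cy5 over Cy3), a term that is also the replicate block. With it removed the dcKO ratios were -1.66 and -2.47 and no longer overlapped the single knockouts. The term was fitted on these same arrays, the dcKO pair included, so this separation follows in part from the fit. The second probe gave -0.23 and -1.33 in dcKO, a mean signal 1.71-fold lower than in the wild-type channels of those arrays. It was not well above background in dcKO on either array, so this fold is uncertain. The related *Farp2* had a dcKO ratio of 0.24 ± 0.23 (SD, n = 2; limma adjusted p = 0.611).

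**Figure D1:**
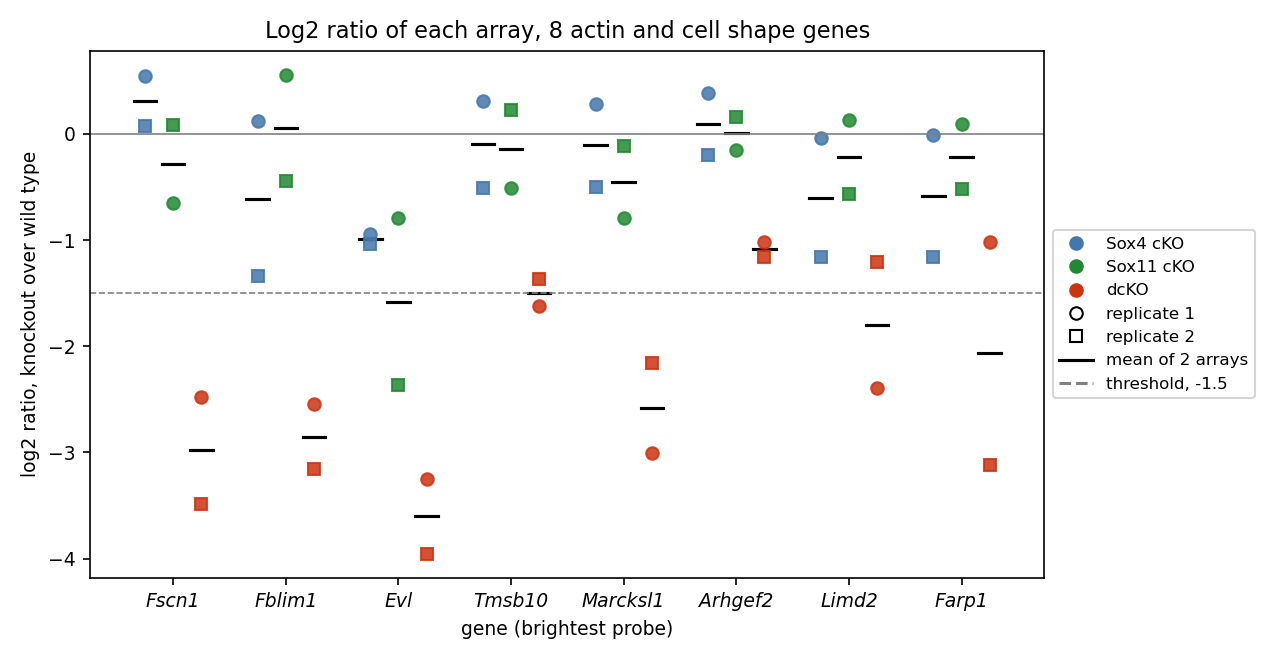
Log2 ratio of knockout over wild type (vertical axis) for the brightest probe of each of the 8 genes (horizontal axis) on each of the 6 arrays. Colour gives the genotype, circles and squares give replicates 1 and 2, bars the mean of 2 arrays and the dashed line the fold threshold of -1.5. All dcKO points lie at -1.01 or lower, the single knockout points of *Evl* lie between -2.37 and -0.79, and the dcKO points of *Farp1* (-1.02 and -3.11) are the farthest apart.

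No member was called in *Sox4* cKO or *Sox11* cKO, beside 0.159% and 0.178% of all genes, counts that the choice of genes changed only in dcKO also shaped. *Evl* was called lower in *Sox11* cKO without *Sox11* cKO replicate 1, with the authors' value table and in the separate-channel fit. In *Sox4* cKO 3 members were lower on both arrays, 1 was higher on both and 4 differed in sign between arrays. In *Sox11* cKO 2 members (*Evl* and *Marcksl1*) were lower on both arrays and 6 differed in sign. For *Sox11* cKO minus *Sox4* cKO, the members' log2 differences ranged from -0.59 (*Fscn1*) to 0.67 (*Fblim1*). None of the 8 was called there, beside 0.0187% of all genes. The preference for genes changed only in dcKO bears on this difference too, so it is given as a description with no test.

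The dcKO ratio of each member was also set beside the sum of its mean single knockout ratios, as a description, since dcKO values chose the genes. For *Fscn1* the sum was 0.02 against -2.98 in dcKO, a gap of -3.00, the largest of the 8. *Fblim1* (gap -2.30) and *Marcksl1* (-2.02) followed. The gap was -1.27 for *Farp1*, -1.25 for *Tmsb10*, -1.19 for *Arhgef2* and -0.98 for *Limd2*. *Evl*, with the lowest dcKO ratio, had one of the smallest gaps (-1.03), because its single knockout ratios already summed to -2.57.

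**Figure D2:**
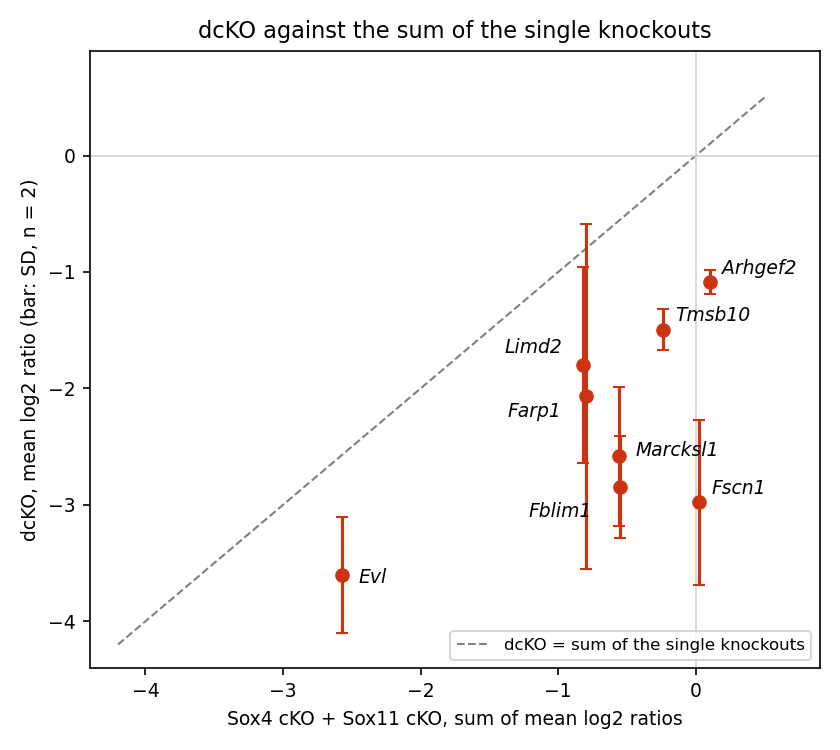
Mean dcKO log2 ratio (vertical axis, bars are the SD of 2 arrays) against the sum of the mean *Sox4* cKO and *Sox11* cKO log2 ratios (horizontal axis) for the 8 genes. The dashed line marks a dcKO ratio equal to that sum. All 8 genes lie under the line, *Fscn1* by 3.00 and *Limd2* by 0.98, and *Evl* lies far to the left of the others at -2.57.

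A ratio can fall because the knockout channel is low or because the wild-type channel is high, so the level of each channel was examined within each probe, as log2 signal after scaling between arrays. For all 8 members both dcKO levels lay below all 10 other channels. The members were chosen by a lower dcKO level on these arrays, so this count describes the choice. The share of all genes with the same pattern was not counted. *Fscn1* measured 8.09 and 6.80 in dcKO, while the lowest, median and highest of its 6 wild-type levels were 8.93, 10.31 and 10.70. *Evl* had the most even wild-type levels (12.54 to 13.12) and measured 9.29 and 8.79 in dcKO. Its single knockout levels, 10.64 to 12.15, lay between, below every wild-type level and above both dcKO levels.

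The wild-type levels themselves differed between arrays for several members. Whether the cultures, the arrays or the dyes account for this was not tested. *Farp1* had wild-type levels from 6.89 on *Sox4* cKO replicate 1 to 10.29 on *Sox11* cKO replicate 1, a range of 3.40, wider than its mean dcKO change of -2.07. The knockout channel followed, at 6.89 and 10.38 on those arrays, and the lower dcKO level of 5.41 was not well above background. *Fblim1* ranged over 2.17 and *Fscn1* over 1.77 in wild type, with the lowest wild-type level of each, like that of *Farp1*, on *Sox4* cKO replicate 1. *Limd2* ranged over 1.54, and its highest wild-type level, 13.81, was on dcKO replicate 1, the array with the lower of its dcKO ratios. Its dcKO levels themselves were close together, at 11.41 and 11.44. For *Evl*, *Marcksl1* and *Arhgef2* the wild-type range was under 1. Wild type on the dcKO arrays exceeded the mean of the remaining 4 wild-type channels for 6 of the 8 members, by 0.06 for *Marcksl1* to 0.63 for *Fscn1*, and lay below it for *Evl* (-0.34) and *Farp1* (-0.68). Without scaling between arrays, *Marcksl1* (-0.18) and *Arhgef2* (-0.20) lay below it as well. Measured from the 4 wild-type levels of the single knockout arrays instead, the mean dcKO level still differed by -1.01 (*Arhgef2*) to -3.94 (*Evl*).

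**Figure D3:**
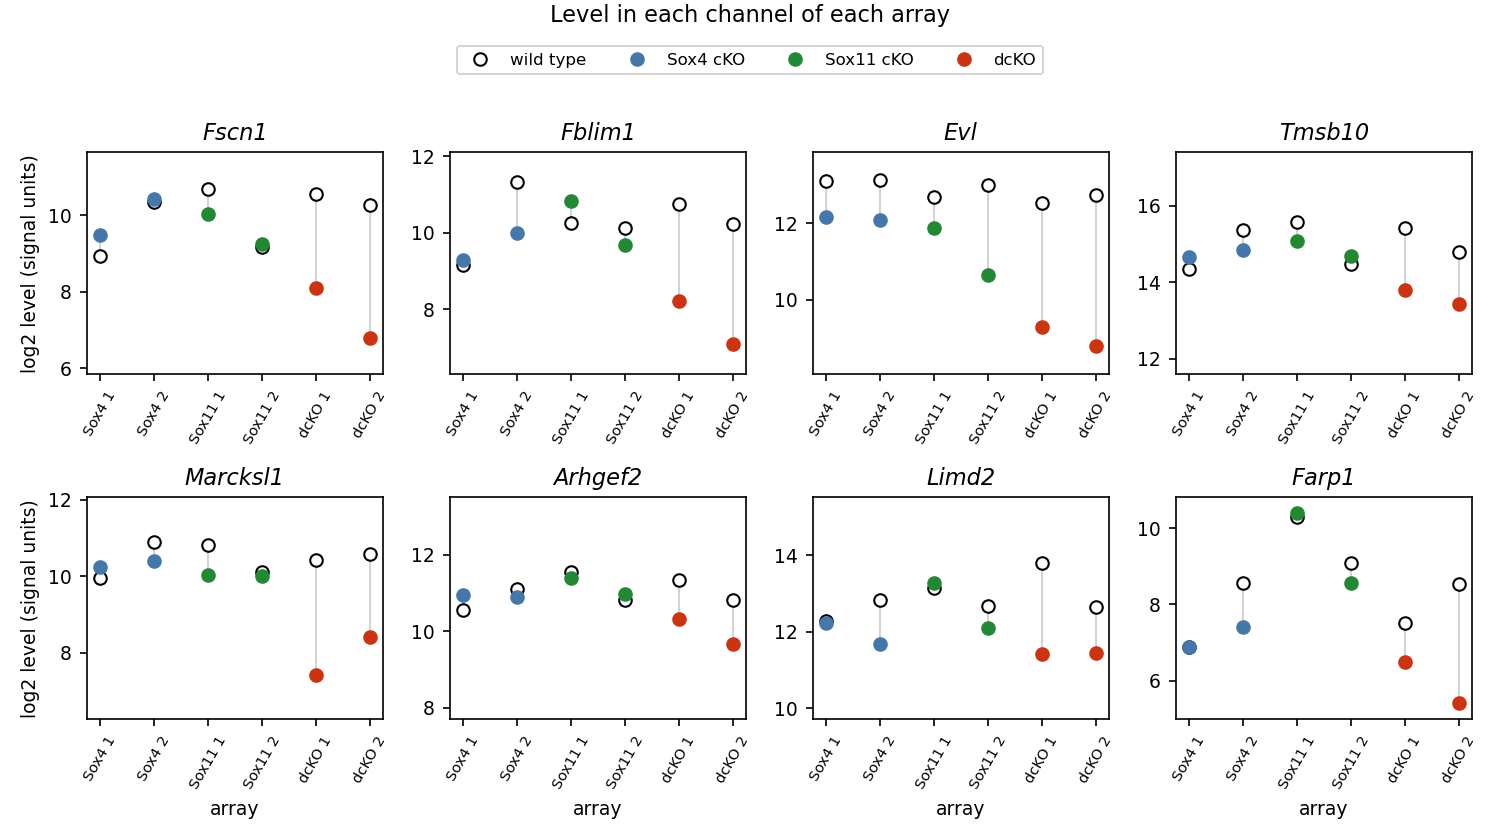
Log2 level of the brightest probe (vertical axis, signal units, the same span in every panel) in the wild-type channel (open circles) and the knockout channel (filled circles) of each array (horizontal axis, genotype and replicate) for the 8 genes. Grey lines join the channels of 1 array, dcKO (red) is the lowest pair in every panel, and the wild-type level of *Farp1* ranges over 3.40. The genes were chosen by a lower dcKO level on these arrays.

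The genes whose 6 dye-adjusted ratios were nearest to those of *Fscn1*, among 10682 other genes above background in all wild-type channels, were *Etv4*, an ETS transcription factor (distance 0.651), *Adgra3*, an adhesion G protein-coupled receptor (0.843), and *Arhgef3*, an exchange factor (0.894). *Etv4* had mean ratios of 0.29 in *Sox4* cKO, -0.07 in *Sox11* cKO and -2.61 in dcKO. The nearest other member, *Marcksl1*, stood at rank 10. Nearest to *Fblim1* were the closely similar genes *Rtl8c* (0.896) and *Rtl8b* (1.01), whose probes may cross-react, and *Tead2* (1.03), a TEAD transcription factor, with mean ratios of -0.57, -0.11 and -2.34. *Marcksl1* was again the nearest member, at rank 10. *Evl* was the member farthest from both *Fscn1* (rank 387) and *Fblim1* (rank 269). These distances include the dcKO ratios that chose the members. *Etv4* is on the same list of positively regulated targets, and the study names *Tead2* among the previously known SOX4 and SOX11 targets.

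Beyond the members, 81 other genes of actin bundling, monomer turnover, focal adhesions, cytoskeletal signalling, receptors linked to FARP1 and the members' families were followed in the same fit. In dcKO 8 of the 81 had a limma adjusted p below 0.05 and a lower level, all among the 71 well above background in the wild-type channel of both dcKO arrays, and none was higher. That is 9.88% of the list and 11.3% of its 71 genes above background. Over all genes 2.13% were lower by the same adjusted p alone, 3.86% of genes above background were lower, and 1.46% of all genes were higher. The median dcKO ratio of the list was -0.13 against -0.01 over all genes. The members' relatives contributed 4 of 21, the monomer and turnover group 2 of 12, focal adhesion adaptors 1 of 14, and neither the 14 filopodia genes nor the 6 genes linked to FARP1 contributed any. This count rests heavily on the processing, and the share of all genes moved with it. It was 2 with a background offset of 50 (0.37% of all genes lower) and 2 without the dye term (1.01%). With the scanner's processed signals it was 0 (0%), and with median centring it was 35 (15.6%). It also moved when a dcKO or a *Sox11* cKO array was left out, fits that leave 1 array in a genotype.

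*Rhoc*, a GTPase that acts on actin through formins and kinases, fell the most. Its ratios were -1.21 and -2.65 in *Sox4* cKO, -0.38 and -0.74 in *Sox11* cKO, and -2.48 and -3.81 in dcKO (mean -3.15 ± 0.94, SD, n = 2; limma adjusted p = 0.00125). It was lower than wild type on all 6 arrays, and it was the only one of the 81 called in *Sox4* cKO (mean -1.93 ± 1.02, SD, n = 2; limma adjusted p = 0.0326). Its second probe gave -2.05 and -1.99 in dcKO (limma adjusted p = 0.00287) and a *Sox4* cKO mean of -1.22 (limma adjusted p = 0.0564). None of the 81 was called in *Sox11* cKO, beside 0.178% of all genes, and 17 of the 81 had an unadjusted limma p below 0.05. *Rhoc* differed between dcKO and *Sox11* cKO by -2.58 (limma adjusted p = 0.0224), where 0.786% of all genes were called. That between dcKO and *Sox4* cKO was -1.22 (limma adjusted p = 0.142), and none of the 81 was called there, beside 1.03% of all genes. In that difference 31 of the 81 had an unadjusted limma p below 0.05. The share of all genes at that unadjusted p was not counted, so neither 17 nor 31 can be read as a result about the list. The *Sox4* cKO call of *Rhoc* was lost in 7 of 10 alternatives and the dcKO minus *Sox11* cKO call in 5 of 10, both dcKO arrays left out in turn among them. Each of the other 7 genes lost its adjusted p below 0.05 in 5 to 7 of 10 alternatives.

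*Actg1*, cytoplasmic gamma-actin, fell to -1.15 and -1.82 in dcKO (mean -1.48 ± 0.48, SD, n = 2; limma adjusted p = 0.0176). Its 4 other probes lay between -1.46 and -0.67, and only 1 of them passed (limma adjusted p = 0.0209). Probes for actins can cross-react between near-identical genes. The filament-severing *Cfl1*, cofilin, had dcKO ratios of -0.93 and -0.87 (limma adjusted p = 0.0275). Its 2 other probes had means of -0.88 (limma adjusted p = 0.0362) and -0.69 (limma adjusted p = 0.242), so 1 of them did not pass. The crosslinker *Flna*, filamin A, had dcKO ratios of -0.95 and -1.26 (limma adjusted p = 0.0283). None of these 3 passed in a single knockout.

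**Figure D4:**
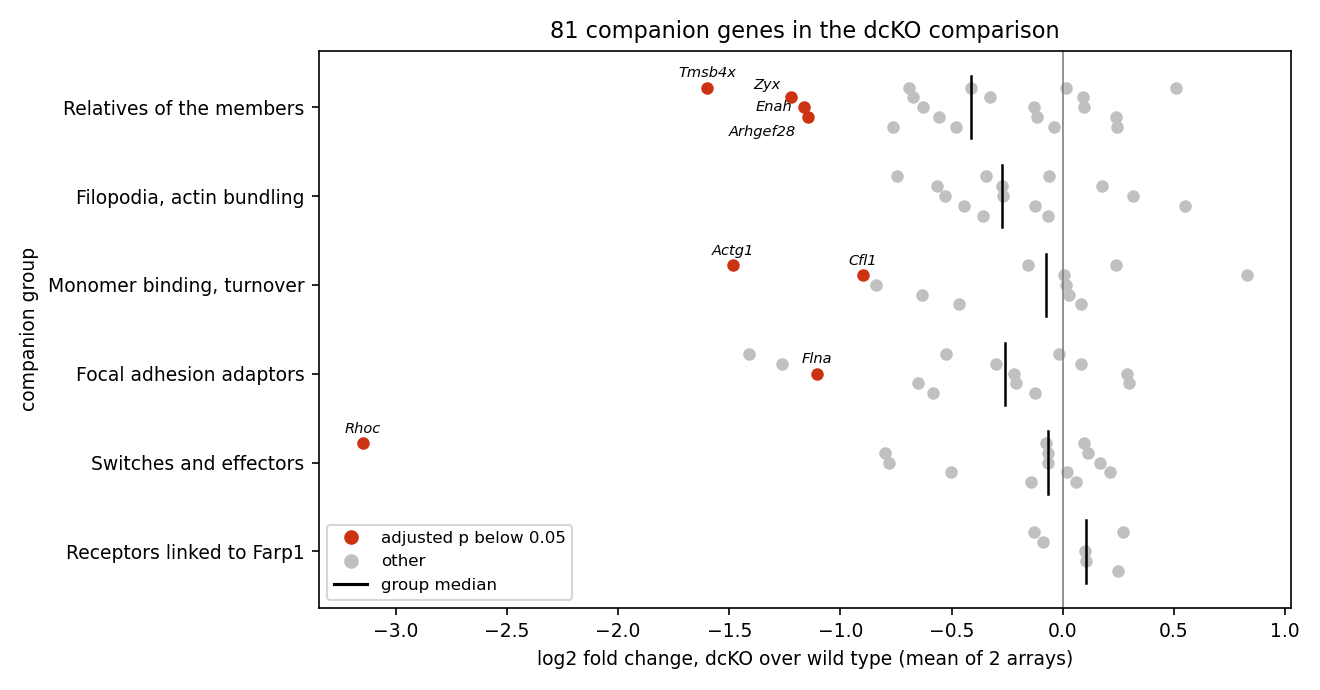
Log2 fold change of dcKO over wild type (horizontal axis, mean of 2 arrays) for 81 related cytoskeletal genes in 6 groups (vertical axis, points are spread vertically for clarity). Red points have a limma adjusted p below 0.05 and black lines mark group medians. All 8 red points lie below 0, 4 of them among the relatives of the members, and *Rhoc* (-3.15) is the lowest.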

How the data were processed

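Keratinocyte RNA was measured on 6 Agilent SurePrint G3 mouse arrays, scanned as 1 slide in 1 scan. The deposited scanner files hold spot intensities for each dye from Agilent Feature Extraction 11.0.1.1, per the file headers. The deposited value table holds log2 ratios that the authors turned to knockout over wild type, and its medians lay between -0.007 and 0.005. Its correlation with the scanner ratios was 0.851 to 0.932 over probes above background in both channels, and its slope was 0.588 to 0.725. Against the loess log2 ratios used here, with the dye effect removed, its correlation was 0.987 to 0.995 and its slope 0.950 to 1.00.

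Median spot intensities were corrected with normexp (offset 16, as in the study's methods) in limma 3.58.1 (R 4.3.3). Control spots and outlier spots were left out, arrays were loess-normalized, and spots were averaged to 55681 probes. RefSeq accessions named 28331 of 29786 accession-bearing probes (95.1%). The brightest probe stands for a gene. Genotype effects and a shared dye term were fitted over all 6 arrays with lmFit and eBayes, and p-values were adjusted over all probes (Benjamini-Hochberg). The fit was tested on simulated data. Folds are compressed by the offset. Channel levels were scaled between arrays (Aquantile). Only 2 arrays were made for each genotype, which limits the precision of every ratio.

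The knockout dye follows the replicate number, so the dye term is also the replicate block. Deviations of same-numbered arrays from their group means correlated at 0.316, 0.244 and 0.125 across the 3 genotype pairs. Members and gene lists were chosen with earlier results of these data known. Members, targeted genes, the members' relatives, the other listed genes with an adjusted p below 0.05 and the 3 genes nearest to *Fscn1* and to *Fblim1* are named with values. Alternatives were the background offset, the scanner's processed signals, median centring, the authors' value table, no dye term, a filter on dim probes, the mean of all probes of a gene, a separate-channel fit and leaving out each array.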

Additional observations from a re-analysis of the deposited data

Results flagged for a closer look

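*Fscn1* was higher than wild type on both *Sox4* cKO arrays (0.54 and 0.07) and lower on both dcKO arrays, and the means of dcKO and *Sox4* cKO differed by -3.29 on the log2 scale. This difference was not tested, since dcKO values chose the gene. *Rhoc* had a lower ratio in dcKO than in *Sox11* cKO, with a difference of -2.58 (limma adjusted p = 0.0224, and 0.000236 to 0.378 over its alternatives).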

How the results depend on the processing

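The members called lower in dcKO numbered 5, against 2 with a normexp offset of 50, 0 with the scanner's processed signals, 8 with median centring, 4 without the replicate block (the dye term), and 2 to 6 when 1 array was left out. With the processed signals no gene was called lower and the median of all genes moved to 0.12. The cause was not tested. The direction of every member in dcKO held under all 14 alternatives, between -4.15 and -0.75. The members were chosen by that direction, so this describes the choice. Leaving out a single knockout array, the dye term or dim probes left the members' dcKO ratios unchanged, so those alternatives could not alter the direction. *Fblim1* was called in 14 of 15 settings, *Fscn1* and *Evl* in 12, *Marcksl1* in 11, *Farp1* in 10, *Limd2* in 6, and *Tmsb10* and *Arhgef2* in 1. In *Sox4* cKO and in *Sox11* cKO minus *Sox4* cKO no member was called under any alternative. In *Sox11* cKO 1 member, *Evl*, was called with the authors' value table, 1 in the separate-channel fit and 0 to 1 when an array was left out (*Evl* in each case). The 81 related genes lower in dcKO by adjusted p numbered 8, against 2 with offset 50, 35 with median centring, 2 without the replicate block, 0 with processed signals and 0 to 18 when an array was left out, and those higher numbered 0 to 1 (*Gsn* without *Sox11* cKO replicate 1 and without *Sox11* cKO replicate 2). The 1 called in *Sox4* cKO became 0 with offset 50, without the replicate block and with processed signals, and 0 to 2 when an array was left out. In *Sox11* cKO 0 to 1 were called when an array was left out. Where an array is left out, the remaining array of its genotype is assumed to vary like the others. Without scaling between arrays, the wild-type level of *Evl* on the dcKO arrays was lower than on the other arrays by -0.60, and those of *Marcksl1* (-0.18) and *Arhgef2* (-0.20) turned from higher to lower. *Farp1* in dcKO has the least signal over background of the members.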
